A study of Mus musculus with 4 samples.

Results

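Mature microRNAs (miRNAs) were compared between the NFIA-overexpressing (NFIA OE) and control cells of primary neurospheres, with 1 array for each title, which are 2 of the 4 arrays of the series. The cells were neural stem and progenitor cells (NSPCs) grown as floating spheres from mouse embryonic stem cells (ESCs), at passage 0 and day 6 of culture after embryoid bodies. Both populations grew in the same mixed spheres and were then separated by fluorescence-activated cell sorting. The other 2 arrays hold secondary neurospheres, passage 1 and day 12, of the same titles. The sources used here do not give what drives NFIA or whether the overexpressing line is 1 clone. The sample titles and the source names state opposite NFIA status: cells of an NFIA OE line are the stated source of the titled control array, and wild-type cells that of the titled NFIA OE array. Directions below follow the titles, and every sign turns if the source names are right. NFIA is not a miRNA, so the array has no probe for it and the titles could not be checked against it.

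All 611 mouse miRNAs of the array design were examined, and a miRNA counted as detected where at least 50% of the spots of 1 of its probes were well above background. On the array titled control 186 miRNAs were detected, and on the array titled NFIA OE 220. Differences could be measured for the 179 detected on both by the same probe. With 1 array a title there is no replicate check and no test between titles. Each error given is the standard error (SE) over the replicate spots of an array, which covers technical spread only. All 4 arrays lay on 1 slide, with the titled control arrays in one column and the titled NFIA OE arrays in the other, so that title and column cannot be told apart.

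A mature miRNA is cut from a hairpin precursor, which can give a strand from each arm, and guides Argonaute proteins to mRNAs that pair mainly with its seed. Several hairpins are often transcribed together as 1 primary transcript, and miRNAs with the same seed form a family whose targets overlap. NFIA is a transcription factor that promotes the switch of neural progenitors from making neurons to making astrocytes, and several miRNAs have been reported to repress it. The let-7 family is scarce in pluripotent cells and builds up as cells differentiate, while miR-9 and miR-124 are typical of neural progenitors and neurons.

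The mature sequences of the miRNAs on which the results turn are shown here, 5′ to 3′, with the seed (bases 2 to 8) in capitals, from RefSeq (GRCm38.p6). They are grouped by seed, because members of some seed groups moved together and members of others did not. Of the 179 measured miRNAs 146 matched a RefSeq entry, as did 13 of the 16 with a difference of 2-fold or more. The names are those of the array design.
let-7a: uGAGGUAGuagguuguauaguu
let-7c: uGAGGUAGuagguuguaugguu
let-7i: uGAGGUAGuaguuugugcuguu
miR-99a: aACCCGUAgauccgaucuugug
miR-100: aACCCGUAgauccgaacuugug
miR-199a-3p: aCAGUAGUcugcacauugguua
miR-199b*: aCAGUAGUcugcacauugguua
miR-322: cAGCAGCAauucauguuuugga
miR-16: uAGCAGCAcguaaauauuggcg
miR-181a: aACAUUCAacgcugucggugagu
miR-181d: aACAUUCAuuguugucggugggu
miR-92b: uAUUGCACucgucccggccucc
miR-92a: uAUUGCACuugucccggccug
miR-363: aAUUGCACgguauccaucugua
miR-335-3p: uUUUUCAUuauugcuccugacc
miR-210: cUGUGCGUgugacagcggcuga
miR-365: uAAUGCCCcuaaaaauccuuau
miR-153: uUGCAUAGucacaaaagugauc
The first group holds let-7a beside let-7c and let-7i; let-7c differs from let-7a by the substitution A19G alone (position counted from the 5′ end of let-7a). miR-100 differs from miR-99a by U16A. The sequences of miR-199a-3p and miR-199b* are identical over all 22 bases, so the 2 array names read the same mature sequence and are not separate evidence. miR-92b differs from miR-92a by U10C and G21C over the 21 bases compared. Because cross-hybridisation between such near-identical miRNAs was not tested, the differences of single let-7, miR-99/100 and miR-92 members carry that uncertainty.

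The levels are intensities averaged over spots, divided by the array's 75th percentile and put on the log2 scale, and a difference is titled NFIA OE minus titled control. At passage 0, 16 of the 179 measured miRNAs (8.94%) were at least 2-fold apart, 9 higher (5.03%) and 7 lower (3.91%) on the array titled NFIA OE. The higher ones were miR-199b*, let-7c, miR-199a-3p, miR-322, miR-99a, let-7i, miR-100, miR-181a and miR-365. The lower ones were miR-92b, miR-363, miR-335-3p, miR-135b, miR-210, miR-124 and miR-219. Without scaling every difference is 0.64 higher, so that values between -0.64 and 0 turn sign. The median difference of all 179 was -0.08, with 79 above 0 (44.1%) and 100 below 0 (55.9%), and the SD across miRNAs was 0.57. The SE over spots had a median of 0.048 and ran from 0.015 to 0.18, and 140 of the 179 differences were larger than 2 SE. For all 16 miRNAs the spot ranges of the arrays, in unscaled intensity, did not overlap in any probe. Spot ranges were examined for these 16 only, so the share over all 179 is not known. Of the 16, 10 were read by 2 probes and 6 by 1.

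**Figure D1:**
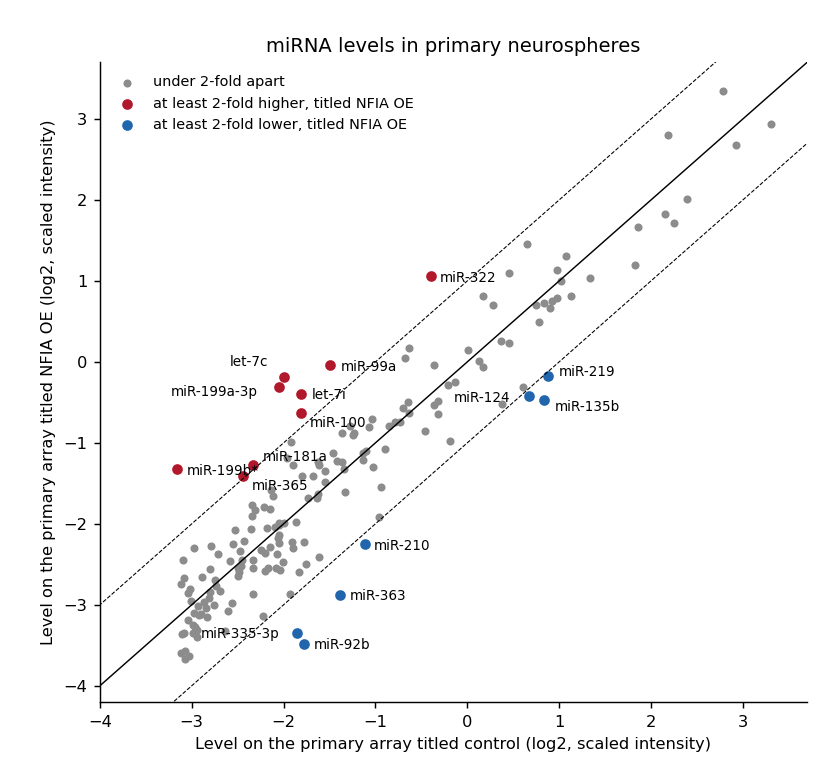
Scaled log2 level of each of the 179 miRNAs on the primary array titled control (x) and on that titled NFIA OE (y), 1 point a miRNA; the solid line marks equal levels and the dashed lines a 2-fold difference. The 9 red points lie above the upper dashed line and the 7 blue points below the lower one, while most other miRNAs lie close to the solid line.

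The let-7 family, regulators of developmental timing and growth, was higher as a whole on the primary array titled NFIA OE. let-7c had a mean intensity of 44.4 on the array titled control and 237 on that titled NFIA OE, a difference of 1.81 ± 0.05 (SE over spots), or 3.50-fold. Its spots ran from 51.1 to 67.8 against 261 to 339.8 for the first probe and from 20.8 to 38.1 against 156 to 194 for the second, so the arrays did not overlap. let-7i had 47.9 against 199, a difference of 1.41 ± 0.04. All 7 measured members of the list of let-7 and miR-98 were above 0, 2 of them at least 2-fold, with a median of 0.81 beside -0.08 for all miRNAs. The remaining 5 lay between 0.64 ± 0.03 for let-7e and 0.92 ± 0.04 for let-7d, with let-7a at 0.81 ± 0.03, let-7f at 0.65 ± 0.03 and let-7g at 0.72 ± 0.03. let-7b and miR-98, the other members on the array, were detected under the title NFIA OE only. This direction held for all 7 under each of the 7 other scalings. It did not hold at passage 1, where 1 of these 7 was above 0 and their median was -0.43.

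The miR-99/100 and miR-125 list showed the same direction; its miR-99a, miR-99b and miR-125a are encoded within 10000 bases of let-7 genes (Mirlet7c-1 and Mirlet7e). miR-99a had an intensity of 59.4 on the array titled control and 253 on that titled NFIA OE, a difference of 1.45 ± 0.06. miR-100 had 47.6 against 169, a difference of 1.19 ± 0.07. The other members were miR-99b at 0.78 ± 0.04, miR-125b-5p at 0.62 ± 0.03 and miR-125a-5p at 0.33 ± 0.04. All 5 were above 0 under the title NFIA OE, also under each of the other scalings, and the median was 0.78. At the Mir99a locus on chromosome 16 (mature miR-99a at chr16:77598940-77598961, plus strand, GRCm38.p6) Mirlet7c-1 follows on the same strand (mature let-7c at chr16:77599672-77599693). let-7c is also made from Mirlet7c-2 (chr15:85706616-85706637, plus strand), beside Mirlet7b in the span of the lncRNA gene Lncppara, and the array cannot separate the 2 sources.

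miR-199a-3p and miR-199b*, known from mesenchymal tissue, were the pair with identical sequences. miR-199a-3p had an intensity of 41.1 on the array titled control and 215 on that titled NFIA OE, a difference of 1.74 ± 0.05. miR-199b* had 18.8 against 104, a difference of 1.83 ± 0.10. The spots of miR-199b* ran from 14.1 to 24.4 on the array titled control and from 92.6 to 113 on that titled NFIA OE. Its control value lay near that array's lowest detected signal of 17.7. With no filter on detection its difference was 1.37, and it was not measured where all spots had to be well above background. The mature miR-199a-3p sequence comes from Mir199a-1 (chr9:21496498-21496519, minus strand, in the span of Dnm2) and Mir199a-2 (chr1:162217883-162217904, plus strand, in the spans of Dnm3 and the lncRNA gene Dnm3os), and that of miR-199b* from Mir199b (chr2:32318524-32318545, plus strand, in the span of Dnm1). miR-199a-5p, which comes from the same 2 hairpins as miR-199a-3p, and miR-214, whose hairpin lies at the Dnm3os locus, were detected under the title NFIA OE only. Of the 12 other mesenchymal, muscle and endothelial miRNAs on the array 10 were detected on neither array, among them miR-1, miR-133a, miR-206, miR-143 and miR-145. miR-140 and miR-140*, the 2 measured, lay at -0.27 ± 0.04 and -0.08 ± 0.04. The summed unscaled intensity of the list, undetected members included, was 140.3 on the array titled control and 191 on that titled NFIA OE. In sorted bulk samples, fewer cells of a type and less RNA per cell cannot be told apart.

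miR-322, the mouse counterpart of human miR-424 and a member of the miR-15/16 seed family, had an intensity of 128 on the array titled control and 549.8 on that titled NFIA OE. The difference was 1.46 ± 0.03, and the spots of its first probe ran from 103 to 120.2 against 415 to 519. The other miRNAs with this seed in RefSeq did not share it: miR-15a lay at -0.05 ± 0.02, miR-16 at -0.10 ± 0.02 and miR-15b at -0.19 ± 0.02. miR-195, of the same family but without a matched sequence here, lay at -0.45 ± 0.11, and the list's median was -0.10 over 5 measured members, of which 1 was above 0; without scaling that median was 0.54 and all 5 were above 0. miR-497 was detected under the title control only. The miRNAs encoded beside Mir322 on chromosome X (mature miR-322 at chrX:53054306-53054327, minus strand, in the span of the lncRNA gene C430049B03Rik) were chosen for description after their values were seen. miR-322*, miR-503, miR-542-3p, miR-542-5p and miR-450a-5p were each detected under the title NFIA OE and not under the title control. So were 41 of all 227 miRNAs detected on either array (18.1%). The lower bounds on these differences, computed as described below, were mostly small. They were 1.82-fold for miR-503, 1.26 for miR-542-3p, 1.25 for miR-450a-5p and 1.09 for miR-322*, and miR-542-5p had none above 1-fold. miR-351, miR-503*, miR-450a-3p, miR-450b-3p and miR-450b-5p, of the same cluster, were detected on neither primary array. miR-503 had an intensity of 50.4 there and 8.79 on the array titled control, where 0 of 10 spots were well above background. At passage 1 miR-322 differed by 0.07 and miR-503 by 0.50.

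miR-322 has been reported to target Nfia, as have miR-153 and miR-223. miR-153, a neuronal miRNA encoded within Ptprn2, had an intensity of 217 on the array titled control and 182 on that titled NFIA OE. After scaling its difference was -0.90 ± 0.02, opposite in sign to that of miR-322, and at passage 1 it was -0.70. miR-223, a myeloid miRNA, was detected on neither array.

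miR-181a, expressed in many tissues including brain and lymphocytes, had 33.3 against 108, a difference of 1.06 ± 0.04 read by 1 probe. It was 0.35 with probes detected on at least 1 array and 0.89 with median centring. Its seed group was spread: miR-181b lay at 0.62 ± 0.04, miR-181c at -0.02 ± 0.10 and miR-181d at -0.40 ± 0.06, and the median of the 4 was 0.30. miR-181a and miR-181b share hairpin clusters, Mir181a-1 with Mir181b-1 and Mir181a-2 with Mir181b-2. miR-365 had 30.8 against 98.7, a difference of 1.04 ± 0.05, and miR-193b, encoded within 10000 bases of Mir365-1, lay at 0.68 ± 0.13. miR-365 was at 0.87 with median centring and 0.90 in the authors' deposited values. Under normexp background correction miR-193b lay at -0.04.

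**Figure D2:**
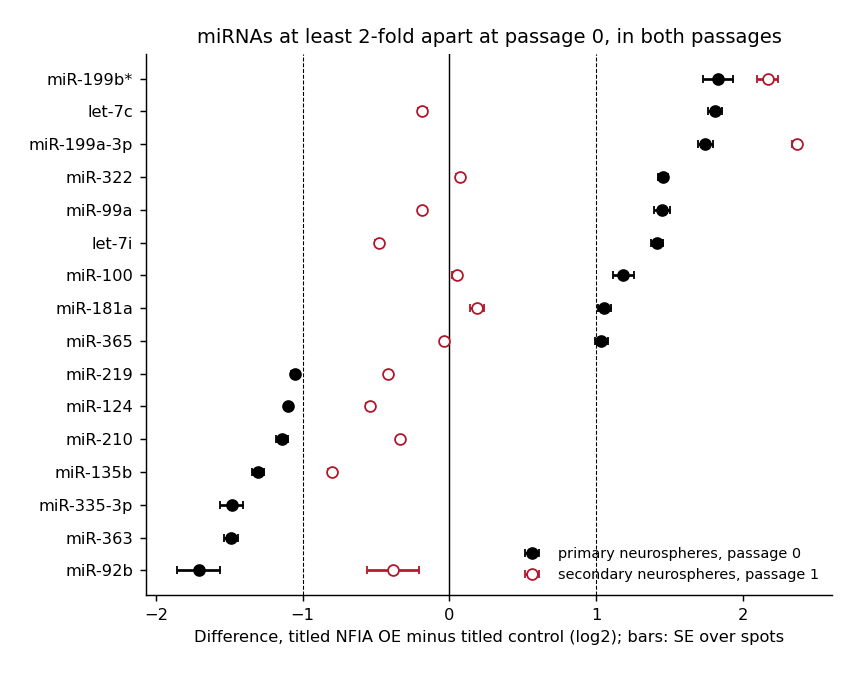
Difference (log2, titled NFIA OE minus titled control) of the 16 miRNAs at least 2-fold apart at passage 0, with the SE over spots; filled points are primary and open points secondary neurospheres, and dashed lines mark a 2-fold difference. At passage 1 only the 2 miR-199 names among them stay beyond the dashed lines, and miR-335-3p and miR-363 have no open point because they were not measured there. The set of probes read for miR-99a, miR-100 and miR-181a differed between the passages.

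Among the lower miRNAs, miR-92b, which is enriched in neural progenitors, differed most. miR-92b had an intensity of 48.9 on the array titled control and 23.3 on that titled NFIA OE, a difference of -1.71 ± 0.15 over 5 spots of 1 probe on each array. Its spots ran from 44.4 to 51.4 and from 16.4 to 29.0, without overlap. It was the only one of the 7 that stayed at least 2-fold lower without scaling (-1.07). The lowest detected signal of the array titled NFIA OE was 16.6, so miR-92b lay near that limit. Its difference was -0.98 with no filter on detection, and it was not measured where all spots had to be well above background. miR-363, encoded in the Mir106a to Mir363 cluster on chromosome X (chrX:52741697-52741718, minus strand), had 65.3 against 36.0, a difference of -1.49 ± 0.05. miR-92b, miR-363 and miR-92a share a seed with 3 other measured miRNAs, which lay at -0.40 ± 0.03 for miR-367, -0.11 ± 0.03 for miR-25 and 0.18 ± 0.13 for miR-32. miR-92a lay at -0.53 ± 0.01, so that the measured members of this seed group ran from -1.71 to 0.18.

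miR-363 belongs to the miR-17 clusters, which promote proliferation of progenitors. All 13 measured members of that list were below 0 with a median of -0.28, and 12 of the 13 lay below the median of all miRNAs; without scaling the list's median was 0.36 and 12 of 13 were above 0. miR-363 was the 1 member at least 2-fold apart, and miR-106b at -0.02 ± 0.02 was the highest. miR-17 lay at -0.47 ± 0.05 and miR-20b at -0.63 ± 0.02. miR-18b was detected under the title control only and miR-106b* under the title NFIA OE only.

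miR-335-3p, from the imprinted Mest gene (chr6:30741354-30741375, plus strand), had 46.4 on the array titled control and 25.9 on that titled NFIA OE. The difference was -1.48 ± 0.08, and the strand from the other arm, miR-335-5p, lay at -0.79 ± 0.03. miR-135b had 299 against 189, a difference of -1.31 ± 0.04, and miR-135a lay at -0.92 ± 0.04. The median of the 3 measured miR-135 members was -0.92. miR-210, which hypoxia induces through HIF-1, had 81.7 against 58.3, a difference of -1.14 ± 0.04 (chr7:141221407-141221428, minus strand). miR-21, a miRNA linked to growth and glia, lay at 0.16 ± 0.03.

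The neuronal and neurogenic list was lower in part. miR-124, the most neuron-specific of them, had an intensity of 267 on the array titled control and 194 on that titled NFIA OE, a difference of -1.10 ± 0.02. Its spots ran from 258 to 282 and from 180.2 to 206, without overlap. miR-218, encoded in Slit2 and Slit3, lay at -0.95 ± 0.03, and miR-7a at -0.74 ± 0.07. The strands of the progenitor miRNA miR-9 lay at -0.12 ± 0.03 (miR-9) and 0.06 ± 0.04 (miR-9*). Of the 9 measured members 7 were below 0, 1 by 2-fold or more, and the median was -0.19; without scaling it was 0.45. miR-137 was detected under the title control only, and at passage 1 it differed by -1.27. miR-9, miR-9* and miR-124, by which the neural label can be checked, were detected on both arrays.

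Few of the oligodendrocyte-enriched miRNAs could be measured. miR-219, which promotes oligodendrocyte differentiation, had 311 against 234, a difference of -1.05 ± 0.03. miR-338-3p, the other oligodendrocyte-enriched miRNA detected, was detected under the title NFIA OE only. All 6 measured members of the astrocyte-enriched list were above 0 (5 of them with median centring and in the authors' deposited values, 4 with normexp background correction), none by 2-fold, with a median of 0.35 that was 0.086 with normexp. They ran from 0.14 ± 0.02 for miR-26b to 0.52 ± 0.06 for miR-29c. All 5 miR-23/27/24 members were above 0, with a median of 0.35 (0.066 with normexp) and miR-27a highest at 0.48 ± 0.06; miR-23a and miR-23b belong to both lists.

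**Figure D3:**
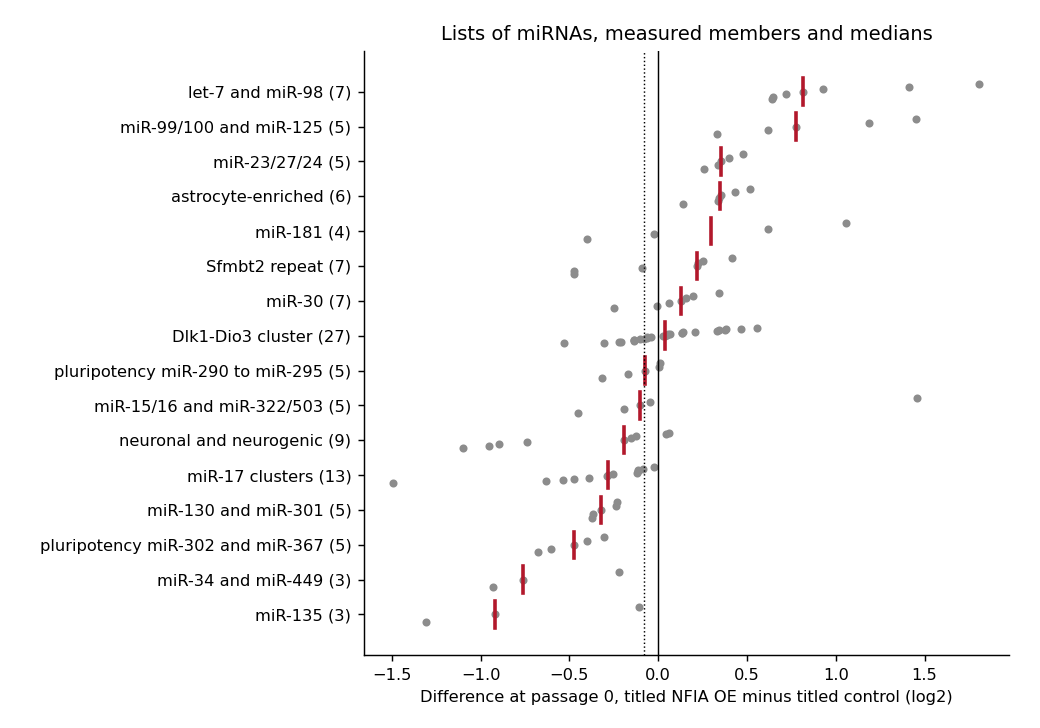
Difference (log2, titled NFIA OE minus titled control) at passage 0 of the measured members of each list with 3 or more of them; grey points are miRNAs, red bars the list's median, the dotted line the median of all 179 miRNAs (-0.08) and numbers in brackets the members measured. The let-7, miR-99/100, astrocyte-enriched and miR-23/27/24 lists lie wholly to the right of the dotted line. The miR-135, miR-34, miR-302 and miR-130 lists lie wholly to its left.

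miRNAs of pluripotent cells were still detected on both primary arrays. Of the miR-290 to miR-295 list, the main miRNA cluster of mouse ESCs, 5 of 14 were measured, and their median of -0.08 equalled that of all miRNAs to 2 decimals (0.57 without scaling). They ran from -0.32 ± 0.04 for miR-292-3p to 0.01 ± 0.04 for miR-293, and miR-290-5p was detected under the title NFIA OE only. Of the miR-302 and miR-367 list, also expressed in pluripotent cells, 5 of 8 were measured and all 5 were below 0, with a median of -0.47; without scaling the median was 0.17. miR-302b lay at -0.60 ± 0.05, miR-302c at -0.68 ± 0.13 and miR-302d at -0.31 ± 0.07.

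Markers of other tissues were mostly not detected. The summed intensities given for these lists are unscaled and include members that were not detected. At its 75th percentile the array titled NFIA OE was 1.56-fold the brighter. Of 7 blood cell miRNAs 1 was measured, miR-155 at -0.51 ± 0.13, and the summed intensity of the list was 26.1 on each array. None of 7 epithelial miRNAs, such as miR-200c and miR-205, was detected. Their summed intensity was 3.88 under the title control and 46.3 under the title NFIA OE, all of it signal from undetected miRNAs. None of 9 Hox cluster miRNAs was detected, with sums of 29.9 and 7.07. Of 4 liver and pancreas miRNAs miR-375 was detected, under the title control only, and the sums were 19.4 and 11.0. The part of these cell types in the differences was not tested.

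Of the Dlk1-Dio3 cluster, a maternally expressed array of miRNA hairpins on chromosome 12, 27 of 72 were measured, 15 above 0, with a median of 0.04 whose sign turned under some scalings. They ran from -0.53 ± 0.10 for miR-543 to 0.55 ± 0.05 for miR-136, and none was 2-fold apart. A further 8 members were detected under the title NFIA OE only, as were 41 of all 227 miRNAs detected on either array (18.1%). Of the list named for the Sfmbt2 repeat, an intronic miRNA cluster, 7 of 39 were measured. They ran from -0.48 ± 0.06 for miR-467f to 0.42 ± 0.06 for miR-669f, with a median of 0.22. The list was formed by miRNA names, and not every member need lie in that intron: RefSeq places Mir467f on chromosome 11 (chr11:69635419-69635439, minus strand). All 3 measured miR-34 and miR-449 members, targets of p53, were below 0, with a median of -0.76 and miR-34c lowest at -0.93 ± 0.05. All 5 miR-130 and miR-301 members were below 0, with a median of -0.32 that was 0.32 without scaling. The 7 measured miR-30 members had a median of 0.13, whose sign turned under some scalings, from -0.25 ± 0.06 for miR-30a* to 0.34 ± 0.05 for miR-30e. Of the list of single miRNAs, miR-551b lay at -0.60 ± 0.13 and miR-455 at 0.41 ± 0.13.

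Members of a seed group did not always share the sign of their difference. Seed groups could be formed only from the 146 miRNAs matched to RefSeq. Among the 20 with 2 or more measured members, which hold 62 miRNAs, all members had 1 sign in 12. The range within a group had a median of 0.45, and it exceeded 1 in 4 groups, those of miR-92b, miR-322, miR-181a and let-7c. Of the let-7 and miR-99/100 seed groups every measured member was above 0. Neighbouring hairpins and the strands of a hairpin can be set beside this. Of the 22 groups of RefSeq miRNA genes on 1 strand within 10000 bases of each other and with 2 or more measured and matched miRNAs, all of these miRNAs had 1 sign in 17. Of the 14 hairpins with both strands measured and matched to RefSeq, the strands had the same sign in 12, and their gap had a median of 0.28 and was largest, at 0.81, for miR-135a and miR-135a*. Members of a group share sequence or precursor and are not independent, and clusters and seed groups overlap. These sign counts depend on where 0 lies. Of all 179 miRNAs 79 were above 0 on the reported scale and 162 without scaling. Some miRNAs made from 2 loci were counted in both hairpin groups, namely miR-181a, miR-181b, miR-16, miR-24, miR-19b and miR-92a.

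**Figure D4:**
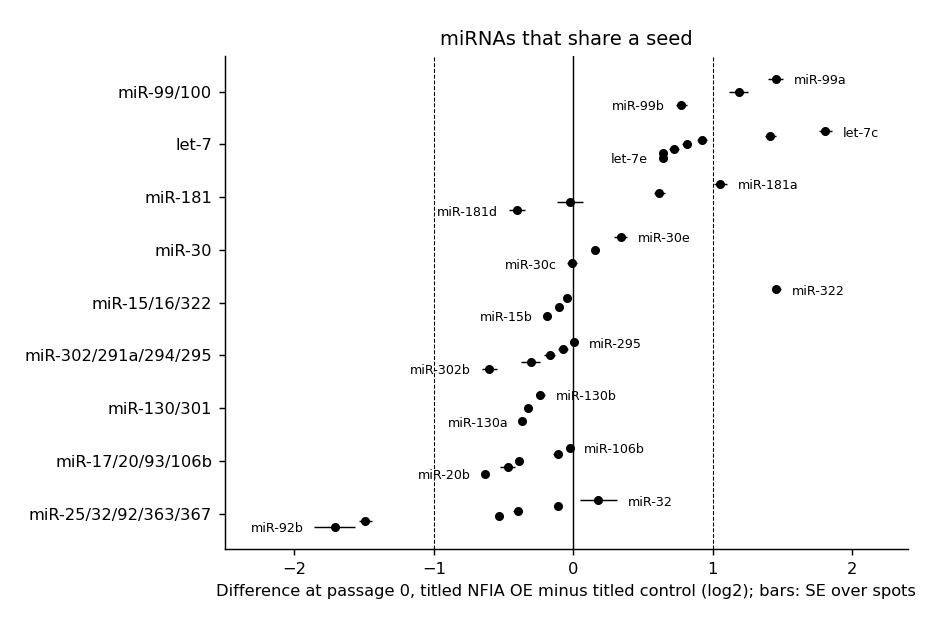
Difference (log2, titled NFIA OE minus titled control) at passage 0 for the seed groups with 3 or more measured members, 1 point a miRNA with its SE over spots; the names mark the lowest and highest member of each group. The let-7 and miR-99/100 members all lie to the right of 0. miR-322 stands off from the rest of its group, as miR-92b and miR-363 do together from the rest of theirs. miR-181a is the highest of a spread group.

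Detection itself differed between the titles. Of 227 miRNAs detected on either array, 41 (18.1%) were detected under the title NFIA OE only and 7 (3.08%) under the title control only. For these a lower bound was computed as the bright array's level over the higher of the dim probe's own level and the lowest detected signal of the dim array. The largest bound under the title NFIA OE was at least 2.71-fold, for miR-139-3p, which is encoded within Pde2a. Of its 9 spots on the array titled control 4 were well above background, and at passage 1 it differed by 1.46. Next came miR-199a-5p at 1.98, miR-193 at 1.94, miR-503 at 1.82, let-7b at 1.42, miR-467b at 1.35, miR-214 at 1.30, miR-181a-1* at 1.27, miR-542-3p at 1.26 and miR-450a-5p at 1.25. For 24 of the 41 the bound was under 1-fold and no fold is given. Under the title control the bounds were at least 2.48-fold for miR-18b, 2.30 for miR-592, 2.28 for miR-375, 1.82 for miR-497, 1.76 for miR-676, 1.71 for miR-137 and 1.44 for miR-374. The array titled NFIA OE was the brighter, with a 75th percentile of 261 intensity units against 167, and its negative-control spots had a median of 2.99 against 3.72. Just inside the detection limit, at 50% of spots, were miR-136*, miR-374 and miR-483*; just outside it, at 40%, were miR-467a, miR-532-5p, miR-328, miR-496 and miR-425.

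The array brightness sets where 0 lies. Without scaling the median of all 179 miRNAs was 0.56, a shift of 0.64 from the reported scale, and 36 miRNAs were at least 2-fold higher and 1 lower. The split between higher and lower was 7 and 12 with median centring, 9 and 11 with quantile normalization, and 8 and 13 in the authors' deposited values. Measured against the median of all miRNAs, 10 were at least 2-fold above it and 6 below, a count that no constant scaling factor can alter; let-7d joined the 9 higher ones and miR-219 left the 7 lower ones. The 19 positive-control probes detected on all arrays, whose RNA targets are not stated, lay between -0.19 and 0.24 on the reported scale, with a median of -0.07. None of the 16 miRNAs changed sign under any of the 13 alternatives in which it was measured. The 16 had been picked as at least 2-fold apart, so a shift of 0.64 could not turn a sign among them. Over all 179 measured miRNAs, 79 were above 0 as reported, 162 without scaling and 41 with normexp background correction.

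**Figure D5:**
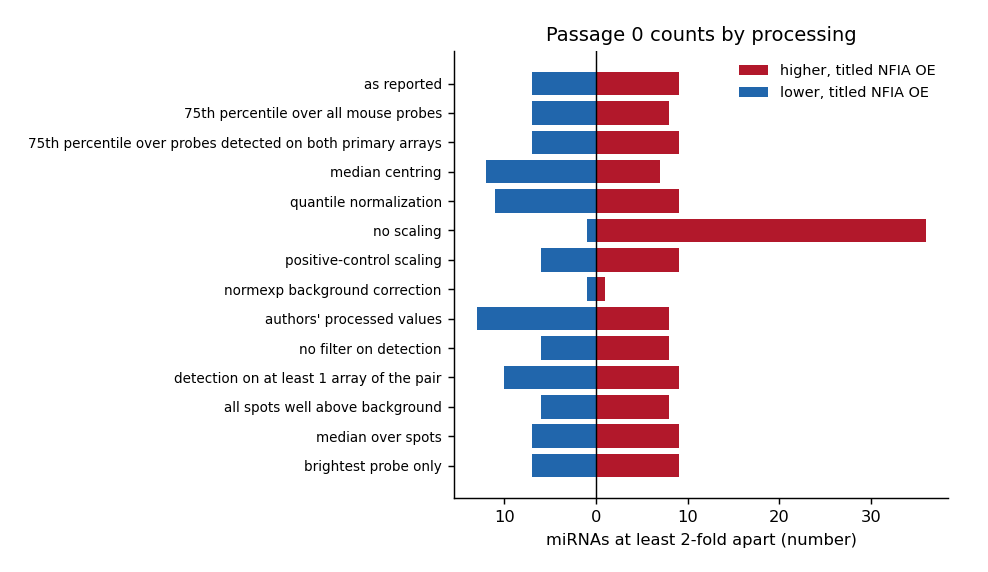
Number of miRNAs at least 2-fold higher (red, to the right) and lower (blue, to the left) on the primary array titled NFIA OE under the reported processing and under each alternative. Leaving out scaling gives 36 higher and 1 lower, normexp background correction gives 1 of each, and the other alternatives give 7 to 9 higher.

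The passage 1 arrays, described here only as far as they bear on the same miRNAs, gave a different set. At passage 1, 9 of 195 measured miRNAs (4.62%) were at least 2-fold apart. Of the 16 miRNAs, 14 were measured at passage 1. All 5 of the lower ones measured there kept their sign, at -0.80 for miR-135b, -0.54 for miR-124, -0.42 for miR-219, -0.39 for miR-92b and -0.33 for miR-210. Of the 9 higher ones 5 kept their sign, and only miR-199a-3p at 2.37 and miR-199b* at 2.17 did so by 2-fold or more. Over all 153 miRNAs measured in both passages 85 had the same sign (55.6%). Of these 153, 62 were above 0 at passage 1, with a median of -0.09, so most miRNAs were below 0 there. The title differences of let-7c, let-7i and miR-99a had the largest gaps between the passages, being above 0 at passage 0 only. Those of miR-302b, miR-92b and miR-218 had the largest gaps in the other direction. Among the higher miRNAs, miR-99a, miR-100 and miR-181a were not read by the same set of probes in both passages. miR-302b lay at -0.60 at passage 0 and 0.85 at passage 1, and miR-218 at -0.95 and 0.11. The scaled level of let-7c was -2.00 under the title control and -0.19 under the title NFIA OE at passage 0, and 1.71 and 1.53 at passage 1. For let-7i they were -1.81 and -0.39, then 1.25 and 0.77. For miR-199a-3p they were -2.05 and -0.31, then -2.65 and -0.28. For let-7c and let-7i both passage 0 arrays thus lay below both passage 1 arrays, and the passage 0 array titled control was the lowest. For miR-199a-3p the array titled control was the lower in each passage. Differences between passages were not tested.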

How the data were processed

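Agilent mouse miRNA arrays, 1 colour, 4 in all, had been quantified by the submitters (Feature Extraction 10.5.1.1, as recorded per the file headers). The deposited processed signal, an intensity already corrected for background by the authors' software, was used. Spots marked as outliers were left out (250 and 281 of 12220 on the primary arrays) and no spot was saturated. Spots were averaged per probe and divided by the array's 75th percentile, taken over probes that all 4 arrays detected. The log2 values of probes detected on both arrays of a pair were averaged per miRNA. Array number limits the precision. No test was possible.

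The authors' deposited table on a linear scale was the total gene signal of each miRNA divided by 1 constant per array (20.3, 34.1, 33.7 and 31.0; 100% of values within 1%); its column medians were 0.882, 0.830, 0.700 and 0.816. The sources used here do not say what set the constants. For 1 alternative its values were put on the log2 scale; the deposited intensities were otherwise used. limma 3.58.1 in R 4.3.3 served for normexp (offset 50) only, and pandas 2.3.3 in Python 3.11.15 for the rest. The steps were tested on simulated data.

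Named miRNAs were those at least 2-fold apart, the one-sided miRNAs with the 10 largest bounds each way, the extremes of each list, a short set of single miRNAs, those at the detection limit and the 3 largest gaps each way between passages. The members and lists were chosen with earlier results of these data known. Old array names were matched to RefSeq by a hand-made map of arms; 34 matched exactly.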

Additional observations from a re-analysis of the deposited data

Results flagged for a closer look

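let-7c, miR-99a, let-7i and miR-365 are listed because the difference between titles had opposite signs in primary and secondary neurospheres. For let-7c the difference was 1.81 in primary and -0.18 in secondary neurospheres. For miR-99a it was 1.45 and -0.19, for let-7i 1.41 and -0.48, and for miR-365 1.04 and -0.04. The values of miR-99a did not come from the same set of probes in both passages. With 1 array a title and passage, the difference between passages was not tested.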

How the results depend on the processing

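The count of 9 higher and 7 lower miRNAs depended on scaling and background. Without scaling it was 36 higher and 1 lower, and with normexp background correction 1 higher (miR-322) and 1 lower (miR-135b). The lower count was 12 with median centring, 11 with quantile normalization and 13 in the authors' deposited values. By construction the normexp offset of 50 narrows differences between dim spots; for the others the cause was not tested. The remaining alternatives stayed within 1.5 times of both counts, among them scaling by the positive-control probes, which was chosen after the data were seen and gave 9 and 6. With every probe of a miRNA required, 107 miRNAs were detected under the title control and 143 under the title NFIA OE. Of the 16 miRNAs, 14 were under 2-fold with normexp, 6 without scaling, and 1 or 2 in each of 6 other alternatives, among them miR-181a and miR-365. No paired analysis was possible because each title has 1 array per passage, and for the same reason no array could be left out. Signals near background limit the detection counts and the bounds.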
